A study of Mus musculus with 18 samples.

Results

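Transcriptomes of T23 cells co-cultured with Sparc-deficient fibroblasts were compared with those of T23 cells co-cultured with wild-type fibroblasts, in 6 of the 18 RNA-seq libraries of the series, 3 of each kind and across all genes. T23 is a mouse prostate adenocarcinoma line. The reference group is T23 with fibroblasts called wild type (Fibro), and the other is T23 with fibroblasts called SPARC-deficient (Fibro SparcKO). Neither group received the antiandrogen enzalutamide, which other libraries of the series did. Another group of 3 libraries, T23 cells grown alone, is given beside some values. Both comparisons with cells grown alone share libraries with the main one, so their values are only set side by side.

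The column headers tag the wild-type fibroblasts FIBROB6 and the others FIBRO_SPARC_KO, and do not say whether B6 names a strain. Apart from that tag, the labels name neither the tissue, the strain or the number of lines of the fibroblasts. Nor do they name the way Sparc was removed. They also leave out the length of co-culture, whether the 2 cell types were separated before RNA was extracted, and whether replicates were separate cultures. P-values therefore measure the spread between these libraries, which may be technical. In bulk RNA, fewer cells of a type and less RNA per cell cannot be told apart, and neither can RNA of T23 cells and of fibroblasts that remained in the sample.

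SPARC is a matricellular glycoprotein: it is secreted, binds collagen and calcium, and alters how cells meet the matrix and how fibrils assemble, without being a main structural part of it. Stromal fibroblasts are a known source of it in the prostate. Its family shares an extracellular calcium-binding module and includes the SPARC-like protein hevin, the SMOC and SPOCK proteins and the follistatin-like FSTL1. The title of the series links SPARC of the stroma to neuroendocrine differentiation of prostate cancer after castration.

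The identity of the cells was first read from markers. Summed over 15 fibroblast markers, the 6 libraries held 32561 to 36129 CPM (counts scaled to a library total of 1 M), and T23 cells grown alone held 33854 to 35227. The list therefore does not tell the fibroblasts from the T23 cells. Some epithelial genes were near 0. Per library there were at most 8 counts of the adhesion gene Epcam, 7 of E-cadherin (Cdh1) and 12 of keratin 8 (Krt8). Other keratin genes were higher, with Krt7 at 11.8 to 24.99 and Krt19 at 11.5 to 18.4 normalised CPM in the 6 libraries. Some markers of macrophages (Adgre1, C1qa, Tyrobp), T cells (Cd3e) and endothelium (Cldn5, Tie1) had no count in any of the 6, for which 3 counts give a limit of 0.121 to 0.159 CPM (counting error only). No count was found for 4 of 14 macrophage and myeloid, 6 of 10 lymphoid (T, B and NK cell) and 2 of 9 endothelial markers. Summed over each list, the myeloid markers held 13.8 to 18.2 CPM and the endothelial ones 4.14 to 6.59.

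Library totals ran from 18.8 to 24.9 M counts, and 19136 to 19766 genes had at least 1. Mitochondrial genes took 1.42% ± 0.412 of the counts with Sparc-deficient and 1.02% ± 0.282 with wild-type fibroblasts (SD, n = 3), with overlapping ranges (exact permutation test, two-sided p = 0.2, where the smallest p that 3 against 3 can give is 0.1). Replicates spread by more than counting noise, and the biological coefficient of variation was 7.03%. Levels below are normalised CPM, in the order of replicates 1, 2 and 3. A gene is called higher or lower when its Benjamini-Hochberg adjusted p over the 13600 tested genes is below 0.05 in the edgeR quasi-likelihood test. Log2 fold changes (Sparc-deficient over wild-type) are given ± SE.

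Sparc itself does not check the knockout, since T23 cells express it. Sparc (ENSMUSG00000018593, chromosome 11, 55394500 to 55423183, GRCm38) was at 3049, 3092 and 3067 CPM in the wild-type co-culture, 3101, 3016 and 2977 in the Sparc-deficient one and 3208, 3192 and 3191 in T23 cells alone. The co-culture ranges overlapped, and the difference between them was not called (log2 -0.02 ± 0.05, adjusted p 0.864).

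Of the other family members, Sparcl1 and Smoc2 fell and Spock3 rose. Sparcl1 (chromosome 5, 104079111 to 104113733), the gene of hevin and the closest relative of Sparc, was at 41.1, 36.8 and 40.9 CPM with the wild type and 15.4, 17.3 and 14.4 with Sparc-deficient fibroblasts, against 40.7, 32.6 and 33.4 in T23 cells alone. Every library with Sparc-deficient fibroblasts lay far below the other 6 (log2 -1.33 ± 0.08, adjusted p 2.22e-10). Smoc2, a secreted calcium-binding matrix protein, stood at 2.97, 2.83 and 2.83 CPM against 1.60, 0.887 and 0.833, also without overlap (log2 -1.37 ± 0.21, adjusted p 0.000113). Spock3, a testican proteoglycan, went from 29.8, 29.6 and 37.1 CPM to 44.6, 48.0 and 41.7 (log2 0.48 ± 0.11, adjusted p 0.00692). That call was lost without wild-type replicate 2 (adjusted p 0.0529). Fstl1 (log2 -0.07 ± 0.05, adjusted p 0.41) and Spock2 (log2 0.11 ± 0.36, adjusted p 0.893), the latter near 1 CPM, were not called. Smoc1 had at most 2 counts per library and Spock1 had 0, so that neither was tested.

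Across all genes, 1566 of 13600 were called (11.5%), 914 higher (6.72%) and 652 lower (4.79%). Most of these changes were small: 1254 of the called genes (80.1%) differed by less than 1.5-fold, with a median size of 1.26-fold. Changes of at least 2-fold were found for 104 genes (0.765%), 62 higher (0.456%) and 42 lower (0.309%). The ranges of 3 and 3 libraries did not overlap for 4132 genes (30.4%), among them 1540 of the called genes. Nearly every called gene was thus without overlap, so that a lack of overlap adds little to a call. The median log2 fold change of all tested genes was -0.01, with 6619 positive and 6981 negative.

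The number of calls rested in part on single libraries. It was 994 without wild-type replicate 1, 857 without wild-type replicate 2 and 903 without Sparc-deficient replicate 2. Higher genes numbered 559 and 579 without wild-type replicate 2 and Sparc-deficient replicate 2. Lower genes numbered 356 and 298 without wild-type replicates 1 and 2, and 324 and 394 without Sparc-deficient replicates 2 and 3. With only the 9 libraries without enzalutamide in the fit, 2437 genes were called, 1092 of them lower.

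The 15 largest increases among genes above 5 CPM, chosen among those whose co-culture groups did not overlap, included genes of secreted immune proteins (Ppbp, Il33, Cxcl1, Ptx3 and C3) and immediate-early genes (Egr1, Ier2, Zfp36, Ier3 and Junb). Ppbp encodes the neutrophil-attracting chemokine CXCL7. It was at 1.30, 1.02 and 0.860 CPM in the wild-type co-culture, 12.8, 8.67 and 10.4 in the Sparc-deficient one and 1.25, 1.04 and 0.740 in T23 cells alone, so that the Sparc-deficient co-culture stood apart from both other groups (log2 3.32 ± 0.23, adjusted p 1.45e-09). Il33, the gene of an alarmin cytokine of the interleukin-1 family, was at 4.06, 3.54 and 4.05 CPM against 16.7, 19.4 and 18.5, with 5.42, 3.40 and 4.29 in T23 cells alone (log2 2.23 ± 0.16, adjusted p 2.99e-09). The lowest library with Sparc-deficient fibroblasts was well above the highest of the other 6. Ptx3, a soluble pattern-recognition pentraxin, was at 45.1, 48.6 and 48.4 CPM against 99.95, 93.0 and 94.7 (log2 1.02 ± 0.07, adjusted p 4.68e-10), and the 3 libraries of each group lay close together. Tnfrsf9, the costimulatory receptor 4-1BB, was at 42.7, 38.8 and 53.3 CPM against 83.5, 104 and 81.7 (log2 1.00 ± 0.13, adjusted p 1.94e-05). Nsg1, a gene of endosomal trafficking in neurons, went from 9.27, 9.27 and 8.19 CPM to 19.5, 18.1 and 18.0 (log2 1.05 ± 0.09, adjusted p 3.47e-08). Gjb2, the gap junction gene of connexin 26, was at 4.64, 3.50 and 3.74 CPM against 6.20, 11.9 and 5.39 (log2 0.98 ± 0.25, adjusted p 0.0124), a rise carried mostly by Sparc-deficient replicate 2. Its call was lost without that library (adjusted p 0.188) or without wild-type replicate 2 (adjusted p 0.0744).

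The 15 largest decreases, chosen in the same way, were of varied function. Ptn, the heparin-binding growth factor pleiotrophin, was at 135, 127 and 95.5 CPM with wild-type and 68.0, 47.9 and 60.2 with Sparc-deficient fibroblasts (log2 -1.02 ± 0.13, adjusted p 6.96e-06). Kctd12, an auxiliary subunit of GABA-B receptors, fell from 65.6, 58.6 and 60.3 CPM to 29.2, 26.6 and 35.2 (log2 -1.02 ± 0.11, adjusted p 7.98e-07). Scara5, a ferritin scavenger receptor of fibroblasts and epithelia, fell from 29.6, 27.5 and 29.0 to 15.5, 15.6 and 16.3 (log2 -0.86 ± 0.10, adjusted p 2.07e-06). For all 3 genes T23 cells alone stood with the wild-type co-culture or above it.

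The lipid carrier gene Apod (-0.83 ± 0.11), the melanosomal and macrophage glycoprotein gene Gpnmb (-0.82 ± 0.07), the developmental regulator Eya1 (-0.77 ± 0.14), the imprinted zinc-finger gene Plagl1 (-0.76 ± 0.08) and the lipid transporter gene Abca9 (-0.76 ± 0.11) fell by smaller log2 amounts. Slc26a7, an anion transporter gene with a mean just below 5 CPM, dropped further than any of these, from 8.07, 7.54 and 7.38 to 2.10, 2.27 and 1.84 CPM (log2 -1.89 ± 0.16, adjusted p 2.35e-08), and was named for its small p, as were Afap1l2 (-0.67 ± 0.07), Nrep (-0.51 ± 0.06) and Prag1 (-0.60 ± 0.07). The neuronal non-coding RNA Bc1 was at 20.002, 53.5 and 36.6 CPM against 17.7, 15.7 and 9.25 (log2 -1.39 ± 0.41, adjusted p 0.029). Its wild-type libraries spread widely, and its call was lost by DESeq2 and when replicates 2 or 3 of either group were left out (adjusted p 0.0535 to 0.211).

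**Figure D1:**
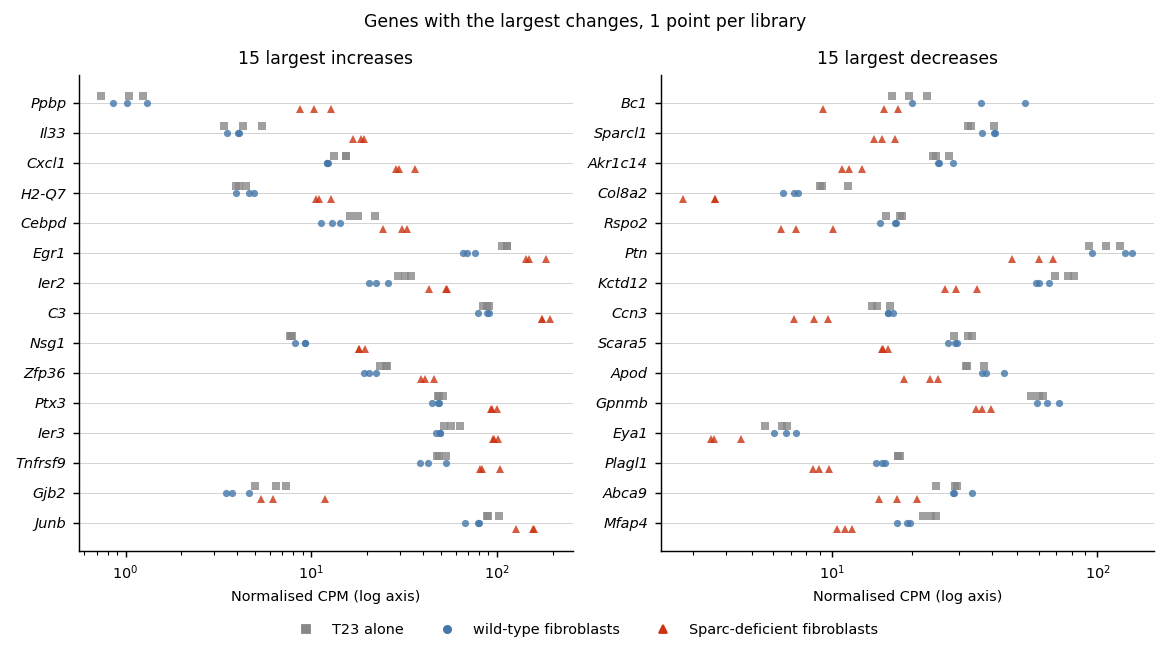
Normalised CPM (log axis) of the 15 genes with the largest increases (left) and the 15 with the largest decreases (right) in the Sparc-deficient against the wild-type co-culture, with 1 point per library and T23 cells alone as squares. Genes whose co-culture groups overlap were left out in choosing these 30, and Ppbp has the largest increase, at 8.67 to 12.8 CPM against 0.860 to 1.30 CPM.

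Promoter sequences are shown for the increased genes that carry a binding motif of an inflammatory or serum-response factor, with a pair of decreased genes for contrast. RefSeq windows of 300 bases (250 before to 50 after the start, build GRCm38.p6) were held for 11 of the 15 increased genes, 9 of the 15 decreased genes and 10143 of the 13598 tested symbols. An NF-kB motif, the site of the main factor of inflammatory gene induction, was found on either strand in 6 of 11 increased genes (54.5%), 0 of 9 decreased genes and 12.5% of all. Some genes have more than 1 window, and counted by window these shares were 46.2%, 0% and 10.5%. The CArG box, the site of serum response factor, was found in 2 of 11 (18.2%), 0 of 9 and 1.59% of all. The AP-1 motif TGACTCA (or its reverse, TGAGTCA), the site of dimers of that family, was found in 9.09%, 11.1% and 4.8%. The STAT motif TTCCNGGAA was found in none of the 11 and none of the 9, and in 1.5% of all. The hypoxia motif ACGTG or GCGTG was found in 54.5%, 22.2% and 67.8%. Motifs can overlap one another, a match is no proof of binding, and windows without one say nothing of the factor. Below, each stretch runs from 200 bases before the start to 9 after its first base, 5′ to 3′ on the strand of the gene, with NF-kB, CArG and AP-1 matches in capitals and hypoxia motif matches left unmarked.

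Ppbp and Zfp36 carry a CArG box, and Cxcl1, Ptx3, Ier3, H2-Q7, Gjb2 and Tnfrsf9 carry NF-kB motifs, in Tnfrsf9 beside an AP-1 motif near the start. Akr1c14 and Col8a2 carry neither. Tnfrsf9 has a further window (chr4:150919955-150920164, plus strand), not shown, in which no NF-kB, CArG or AP-1 match was found.
Ppbp (chr5:90768318-90768527, plus strand): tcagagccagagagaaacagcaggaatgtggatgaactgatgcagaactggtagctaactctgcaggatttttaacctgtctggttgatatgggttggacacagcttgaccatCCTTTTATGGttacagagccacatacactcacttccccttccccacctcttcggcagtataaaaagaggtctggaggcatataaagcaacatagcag
Zfp36 (chr7:28379219-28379428, minus strand): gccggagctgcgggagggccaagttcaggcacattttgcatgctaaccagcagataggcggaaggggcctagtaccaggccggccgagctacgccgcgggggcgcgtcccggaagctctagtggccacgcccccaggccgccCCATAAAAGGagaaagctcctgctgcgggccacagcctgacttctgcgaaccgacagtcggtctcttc
Cxcl1 (chr5:90891045-90891254, plus strand): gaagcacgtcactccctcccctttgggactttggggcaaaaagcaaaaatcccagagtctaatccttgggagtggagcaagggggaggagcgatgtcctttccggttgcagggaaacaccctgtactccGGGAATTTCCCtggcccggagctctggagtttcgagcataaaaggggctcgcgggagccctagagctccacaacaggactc
Ptx3 (chr3:66219687-66219896, plus strand): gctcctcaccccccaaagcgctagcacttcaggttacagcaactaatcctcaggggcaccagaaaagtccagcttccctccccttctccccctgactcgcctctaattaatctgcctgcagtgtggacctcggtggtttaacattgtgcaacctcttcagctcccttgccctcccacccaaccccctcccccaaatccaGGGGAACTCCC
Ier3 (chr17:35821513-35821722, plus strand): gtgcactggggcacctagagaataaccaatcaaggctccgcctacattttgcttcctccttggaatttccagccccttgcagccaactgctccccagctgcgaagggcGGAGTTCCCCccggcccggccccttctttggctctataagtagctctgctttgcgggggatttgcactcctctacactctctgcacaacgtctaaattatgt
H2-Q7 (chr17:35438955-35439164, plus strand): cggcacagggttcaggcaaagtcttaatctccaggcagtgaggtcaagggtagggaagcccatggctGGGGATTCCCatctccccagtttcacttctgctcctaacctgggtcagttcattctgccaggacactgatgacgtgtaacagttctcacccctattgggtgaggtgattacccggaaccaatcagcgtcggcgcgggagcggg
Gjb2 (chr14:57104693-57104902, minus strand): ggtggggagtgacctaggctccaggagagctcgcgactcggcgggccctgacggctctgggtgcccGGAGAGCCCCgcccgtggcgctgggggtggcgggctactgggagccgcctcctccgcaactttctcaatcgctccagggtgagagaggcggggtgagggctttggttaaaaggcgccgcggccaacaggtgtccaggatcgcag
Tnfrsf9 (chr4:150927799-150928008, plus strand): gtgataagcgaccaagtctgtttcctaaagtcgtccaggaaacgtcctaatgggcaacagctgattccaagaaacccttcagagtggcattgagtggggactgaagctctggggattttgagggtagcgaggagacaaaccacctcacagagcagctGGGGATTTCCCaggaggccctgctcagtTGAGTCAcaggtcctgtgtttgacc
Akr1c14 (chr13:4059391-4059600, plus strand): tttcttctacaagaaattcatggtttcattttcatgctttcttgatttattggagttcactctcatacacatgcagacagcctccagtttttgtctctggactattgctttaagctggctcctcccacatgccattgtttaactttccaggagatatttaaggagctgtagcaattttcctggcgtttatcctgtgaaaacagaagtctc
Col8a2 (chr4:126286594-126286803, plus strand): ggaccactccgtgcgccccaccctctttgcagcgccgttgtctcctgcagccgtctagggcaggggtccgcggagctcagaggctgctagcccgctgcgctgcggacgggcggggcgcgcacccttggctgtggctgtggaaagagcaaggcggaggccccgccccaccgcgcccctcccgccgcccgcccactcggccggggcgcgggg

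Chemokine genes were called in both directions. Of 7 tested CXC chemokine genes, whose products chiefly attract neutrophils and lymphocytes, 4 were higher and 0 lower. Of 8 tested CC chemokine genes, chiefly attractants of monocytes and T cells, 0 were higher and 2 lower. Over both classes the median log2 fold change was 0.09, against -0.01 for all genes. Cxcl1 (chromosome 5, 90891241 to 90893115) was at 12.2, 12.3 and 12.2 CPM with the wild type and 36.2, 28.7 and 29.8 with Sparc-deficient fibroblasts, with 15.3, 13.3 and 15.4 in T23 cells alone (log2 1.37 ± 0.12, adjusted p 3.13e-08). The 3 wild-type libraries were nearly equal, and the 3 others stood more than 2-fold above them.

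Cxcl5 (chromosome 5, 90759360 to 90761624), which signals through the same neutrophil receptor, was at 0.365, 0.275 and 0.455 CPM against 1.60, 0.788 and 1.23 (log2 1.74 ± 0.44, adjusted p 0.0106). Its counts were low, and its call was lost without wild-type replicate 2 or Sparc-deficient replicate 1 (adjusted p 0.0643 to 0.0750). Cxcl5, Ppbp and Cxcl1 lie in that order on chromosome 5. Of other genes of this class, Cxcl3 had 0 counts in the 6 libraries, and Cxcl2 and the platelet factor gene Pf4 had at most 1. Cxcl12, the stromal ligand of CXCR4, measured 792, 806 and 708 CPM against 914, 809.9 and 910.4 (log2 0.19 ± 0.06, adjusted p 0.044), and lost its call in 5 of 16 alternatives (0.0537 to 0.184). Ccl2, the main monocyte attractant, was at 196, 204 and 196 CPM against 184, 149.9 and 165 (log2 -0.26 ± 0.07, adjusted p 0.0239), and Ccl5 at 9.32, 8.68 and 7.43 against 5.06, 7.19 and 4.60 (log2 -0.60 ± 0.17, adjusted p 0.0222). Both of these decreases were lost when Sparc-deficient replicate 3 or wild-type replicates 1 or 2 were left out, and also Sparc-deficient replicate 2 for Ccl2 and 1 for Ccl5, at adjusted p 0.0577 to 0.178 for Ccl2 and 0.0818 to 0.131 for Ccl5. With the loss of Cxcl5 and Cxcl12, 2 higher chemokine genes were left without Sparc-deficient replicate 1.

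In the interleukin-1 family, 3 of 10 tested members were higher and 0 lower. Beside Il33, these were its receptor gene Il1rl1, which encodes ST2 and was abundant at 1561, 1589.9 and 1609 CPM against 1867, 1866 and 1924 (log2 0.25 ± 0.05, adjusted p 0.00151), and the interleukin-1 receptor gene Il1r1, at 58.8, 57.2 and 58.7 against 74.6, 71.3 and 81.6 (log2 0.38 ± 0.07, adjusted p 0.000383). Il33 thus rose by a larger fold than its receptor, from a far lower CPM. The cytokine genes Il1b (0 counts) and Il1a (at most 1 count per library) were not measurable.

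Immediate-early genes, which are transcribed within minutes of a growth factor, stress or calcium signal without new protein synthesis, were among the clearest changes. Of 39 tested members, 16 were higher and 2 lower (46.2% called), with a median of 0.18. By role, 4 of 9 AP-1 subunits were higher, as were 4 of 9 zinc-finger factors and 1 of 3 nuclear receptors. Of 18 feedback regulators and others, 7 were higher. The number higher stayed between 13 and 18 in the 16 alternatives.

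Fos, the AP-1 subunit, was at 2.24, 2.12 and 1.62 CPM in the wild-type co-culture, 7.07, 7.98 and 6.57 in the Sparc-deficient one and 3.70, 3.35 and 3.70 in T23 cells alone. The wild-type co-culture was lowest and the Sparc-deficient co-culture highest, with the cells grown alone between them and no overlap among the 3 groups. The change was 1.84 ± 0.16 between both co-cultures (adjusted p 3.47e-08). Against T23 cells alone it was -0.84 ± 0.18 (adjusted p 0.0259) with wild-type and 1.00 ± 0.15 (adjusted p 6.15e-05) with Sparc-deficient fibroblasts.

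Egr1, a zinc-finger factor induced by the ERK pathway, showed the same order of groups, at 76.1, 69.5 and 65.9 CPM, 149, 183 and 143 CPM and 114, 107 and 113 CPM (log2 1.17 ± 0.08, adjusted p 1.03e-09 between co-cultures). Against T23 cells alone its change was -0.66 ± 0.08 (adjusted p 0.000276) with wild-type and 0.51 ± 0.08 (adjusted p 0.000103) with Sparc-deficient fibroblasts. Ier2 (1.13 ± 0.11) and Ier3 (1.01 ± 0.08), short-lived response proteins, Junb (0.96 ± 0.11), an AP-1 subunit, and Zfp36 (1.02 ± 0.09), which destabilises cytokine mRNAs, were all near a doubling. Their libraries ran, for Ier3, at 49.7, 47.3 and 49.6 CPM against 102, 95.5 and 96.6, and for Zfp36 at 20.4, 22.2 and 19.3 against 41.1, 46.0 and 39.1. In neither gene did the co-cultures overlap, which was a condition for a place among the largest increases, where both genes belong.

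The MAP kinase phosphatase gene Dusp1 was at 58.6, 61.2 and 55.3 CPM with wild-type and 113, 99.7 and 104 with Sparc-deficient fibroblasts (log2 0.86 ± 0.07, adjusted p 2.62e-08), but at 40.6, 51.5 and 41.2 in T23 cells alone, so that here the cells grown alone were lowest. Smaller increases were called for Zfp36l1 (0.45 ± 0.07), Btg2 (0.49 ± 0.07), Maff (0.48 ± 0.07), Nr4a1 (0.48 ± 0.10) and the ERK phosphatase gene Dusp6 (0.40 ± 0.08). The Krüppel-like factor gene Klf4 fell, from 60.8, 62.5 and 51.7 to 47.7, 46.3 and 44.0 CPM (log2 -0.34 ± 0.07, adjusted p 0.00172). Fosb (log2 0.22 ± 0.13, adjusted p 0.324) and Atf3 (log2 -0.31 ± 0.16, adjusted p 0.228) were not called.

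Of 12 tested EGF receptor ligands and receptors, 2 ligands were higher and 0 members lower (16.7% called, not far from the 11.5% of all genes). Epiregulin (Ereg) was at 7.34, 7.35 and 9.31 CPM against 13.2, 15.6 and 13.9 (log2 0.84 ± 0.12, adjusted p 3.98e-05) and the transforming growth factor alpha gene Tgfa at 16.0, 16.8 and 18.7 against 22.1, 23.6 and 24.9 (log2 0.46 ± 0.09, adjusted p 0.0009), without overlap in either. None of the 5 tested receptor genes was called.

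Some receptor genes of the gp130 cytokines rose. This family of cytokines, with interleukin-6, leukaemia inhibitory factor and oncostatin M, signals through the shared chain gp130 to STAT3. Of 7 tested receptor genes 3 were higher, and of 5 tested ligand genes 1 was. Osmr, the oncostatin M receptor chain, was at 116, 106 and 113 CPM against 172, 178 and 205 (log2 0.73 ± 0.06, adjusted p 3.6e-09), with 109, 106 and 107 in T23 cells alone. Il6st, the gene of gp130, was at 596, 561 and 602 CPM against 786, 866 and 900.3 (log2 0.54 ± 0.06, adjusted p 1.36e-06). In both genes every library with Sparc-deficient fibroblasts exceeded the other 6.

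Lifr (log2 0.44 ± 0.11, adjusted p 0.00883) lost its call without wild-type replicate 2 (0.0744), as did Lif (log2 0.30 ± 0.09, adjusted p 0.0389) without any 1 of 5 libraries, wild-type replicate 1 being the exception (0.0501 to 0.188), which left 2 higher members in this list without wild-type replicate 2. Il6 had 1 to 7 counts per library, 7 over the wild-type and 12 over the Sparc-deficient libraries, and Osm had 0. Their levels were under or near the limit of detection at this depth.

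Of 22 tested STAT3 response genes, 8 were higher and 0 lower, with a median of 0.17. The feedback inhibitor gene Socs3 was at 61.7, 62.5 and 52.6 CPM against 115, 109 and 106 (log2 0.90 ± 0.07, adjusted p 3.6e-09). Cebpd, an acute-phase transcription factor, was at 14.4, 13.0 and 11.3 CPM against 30.8, 32.9 and 24.5 (log2 1.19 ± 0.13, adjusted p 1.97e-06). Il4ra, the interleukin-4 receptor chain, was at 93.8, 95.0 and 85.7 against 159, 137 and 151 (log2 0.70 ± 0.07, adjusted p 1.65e-07). No library with Sparc-deficient fibroblasts reached down to the wild-type range in any of these genes. For Cebpd this was a condition of its place among the largest increases. Stat3 itself rose by less (0.25 ± 0.04), as did the kinase gene Pim1 (0.53 ± 0.09). The haemoglobin-binding acute-phase gene Hp was at 0.781, 0.825 and 0.657 CPM against 2.05, 1.63 and 2.50 (log2 1.44 ± 0.29, adjusted p 0.00196), near the lowest levels tested. Il13ra1, the partner of Il4ra in the interleukin-13 receptor, was at 99.4, 96.2 and 116 CPM against 157, 165 and 179 (log2 0.69 ± 0.08, adjusted p 3.02e-06). Of 16 tested interferon and cytokine receptor genes of the JAK and STAT pathway, or near it, 5 were higher and 0 lower.

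NF-kB controls many inflammatory genes through a small family of subunits and inhibitors. Of 30 tested targets and feedback genes, 6 were higher and 0 lower (20% called), with a median of 0.08. None of the 5 subunit genes was called. Of 8 feedback genes only the deubiquitinase gene Tnfaip3 (A20) rose, from 22.3, 24.2 and 23.8 to 29.4, 33.3 and 30.9 CPM (log2 0.41 ± 0.08, adjusted p 0.00133), while the inhibitor gene Nfkbia was not called (log2 0.14 ± 0.06, adjusted p 0.134). Csf1, the growth factor of macrophages, was at 799, 787 and 800.1 CPM against 1007, 1048 and 1005 (log2 0.36 ± 0.05, adjusted p 2.62e-05).

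Genes of 3 enzymes of prostaglandin E2 synthesis rose. In the list of prostanoid and lipid mediator genes, 6 of 13 tested members were higher and 0 lower. Pla2g4a, the phospholipase that frees arachidonic acid, was at 131, 135 and 139.9 CPM against 166, 162 and 173 (log2 0.31 ± 0.05, adjusted p 0.000124). Ptgs2, the inducible cyclooxygenase COX-2, was at 109, 93.8 and 113 against 202, 187 and 209 (log2 0.93 ± 0.07, adjusted p 1.45e-09), and Ptges, the terminal synthase, at 47.8, 45.5 and 46.9 against 75.7, 67.7 and 72.8 (log2 0.63 ± 0.06, adjusted p 3.96e-07). For these 3 steps in a row, the lowest Sparc-deficient value lay above the highest wild-type value. Alox5ap, needed for leukotriene synthesis, was at 5.52, 4.48 and 6.27 CPM against 8.98, 9.46 and 8.81 (log2 0.75 ± 0.15, adjusted p 0.00118). The prostaglandin E2 receptor gene Ptger4 (log2 0.63 ± 0.15, adjusted p 0.00746) lost its call in 1 alternative (without wild-type replicate 2, adjusted p 0.0778).

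**Figure D2:**
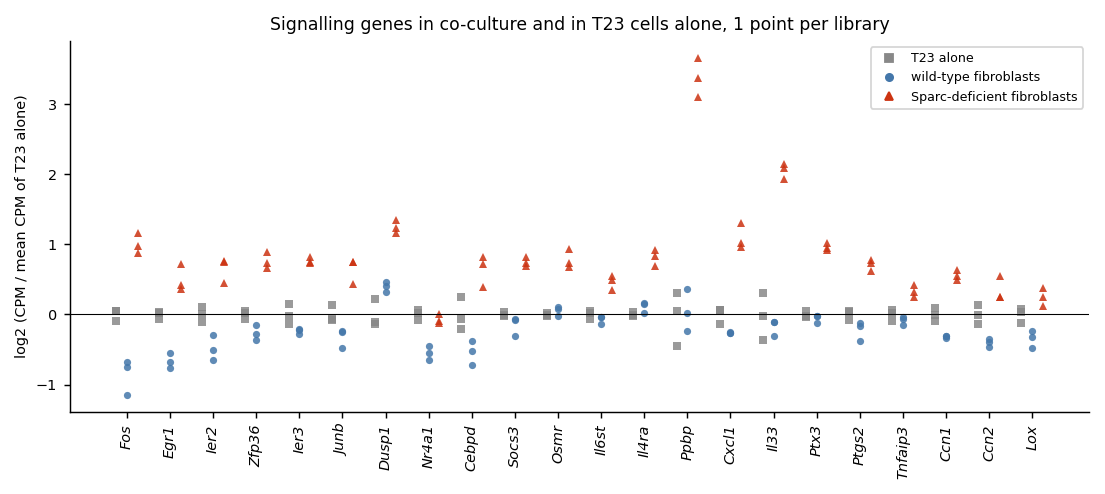
Level of 22 signalling and response genes in each library, as the log2 ratio of its CPM to the mean CPM of T23 cells alone, for cells alone (squares), wild-type co-culture (circles) and Sparc-deficient co-culture (triangles). Fos, Egr1, Ier2, Junb and Ccn1 lie below 0 with wild-type and above 0 with Sparc-deficient fibroblasts, whereas Osmr, Il4ra and Ptx3 lie near 0 with wild-type fibroblasts.

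Hypoxia and glycolysis genes had the largest share of calls of all 40 lists. When oxygen falls, hydroxylases of the EGLN family stop marking HIF proteins for VHL-dependent decay, and HIF then induces glucose uptake, glycolysis and angiogenic factors. Of 44 tested members, 31 were higher and 1 lower (72.7% called), and the median was 0.30. Between 23 and 35 were higher in the 16 alternatives.

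Among the HIF genes, Hif1a was at 142, 145 and 155 CPM against 215, 188 and 228 (log2 0.52 ± 0.08, adjusted p 7.12e-05), the oxygen sensor gene Egln1 at 137, 145 and 146 against 199.8, 208 and 198 (log2 0.50 ± 0.08, adjusted p 8.22e-05) and Vhl at 45.5, 47.8 and 52.4 against 64.7, 60.2 and 63.2 (log2 0.37 ± 0.07, adjusted p 0.000474). Epas1, the gene of HIF-2 alpha, went the other way, at 6.77, 7.31 and 6.32 CPM against 5.33, 4.83 and 4.86 (log2 -0.44 ± 0.13, adjusted p 0.0308), a call lost in 5 alternatives (DESeq2 on the 6 libraries, and without Sparc-deficient replicates 2 or 3 or wild-type replicates 1 or 2; 0.0767 to 0.155). The HIF partner gene Arnt was not called (log2 0.13 ± 0.05, adjusted p 0.0731).

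Among glucose transporters, Slc2a3 (GLUT3) was at 11.9, 11.1 and 14.1 CPM against 23.4, 23.0 and 24.4 (log2 0.94 ± 0.12, adjusted p 1.05e-05) and the more abundant Slc2a1 (GLUT1) at 227, 242 and 241 against 347, 336 and 339 (log2 0.53 ± 0.07, adjusted p 1.69e-05). The lactate exporter gene Slc16a3 (log2 0.89 ± 0.22, adjusted p 0.00982) lost its call without wild-type replicate 2 (0.0663). Of 17 tested glycolytic genes, 15 were higher, and all 17 had a positive log2 fold change, 1 of them near 0. Most of these changes were small and even in size. Hk1 (0.28 ± 0.06), Hk2 (0.31 ± 0.07), Gpi1 (0.45 ± 0.09), Pfkl (0.33 ± 0.07), Pfkm (0.28 ± 0.05), Pfkp (0.38 ± 0.09) and Aldoa (0.29 ± 0.07) carry successive steps from glucose towards pyruvate. The regulators changed more. Pfkfb3, which makes the activator of phosphofructokinase, was at 86.5, 94.3 and 109 CPM against 151, 155 and 159 (log2 0.68 ± 0.08, adjusted p 3.65e-06). Pdk1, which inhibits pyruvate dehydrogenase, was at 116, 116 and 146 against 178, 195 and 183 (log2 0.55 ± 0.12, adjusted p 0.0045). Gapdh, often used as a reference gene, was at 1294, 1273 and 1408 CPM against 1596, 1667 and 1529 (log2 0.27 ± 0.07, adjusted p 0.0113). Its call was lost when replicate 2 of either group or wild-type replicate 1 was left out (0.0537 to 0.0718).

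Other hypoxia targets included Car9, a carbonic anhydrase that serves as a hypoxia marker in tumours, at 2.08, 1.37 and 1.52 CPM against 4.33, 4.73 and 3.72 (log2 1.37 ± 0.22, adjusted p 0.000183). The vasodilator peptide gene Adm was at 166, 169.8 and 185 against 329, 364 and 324 (log2 0.96 ± 0.08, adjusted p 2.78e-08), with 210.1, 174 and 211 in T23 cells alone. The endothelial growth factor gene Vegfa was at 125, 134 and 144 against 204, 209 and 194 (log2 0.59 ± 0.09, adjusted p 0.000107), and the oxidoreductase gene Ero1l at 97.0, 99.6 and 131 against 192, 214 and 209 (log2 0.91 ± 0.14, adjusted p 0.000113). The mitophagy genes Bnip3 (0.68 ± 0.12) and Bnip3l (0.42 ± 0.08) also rose. In all these genes the groups did not overlap. Ddit4 (log2 -0.08 ± 0.09, adjusted p 0.654), Kdm3a (log2 0.09 ± 0.09, adjusted p 0.559) and Stc2 (log2 0.17 ± 0.10, adjusted p 0.299), which also respond to hypoxia, were not called. No measure of oxygen, glucose or cell density was analysed here.

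**Figure D3:**
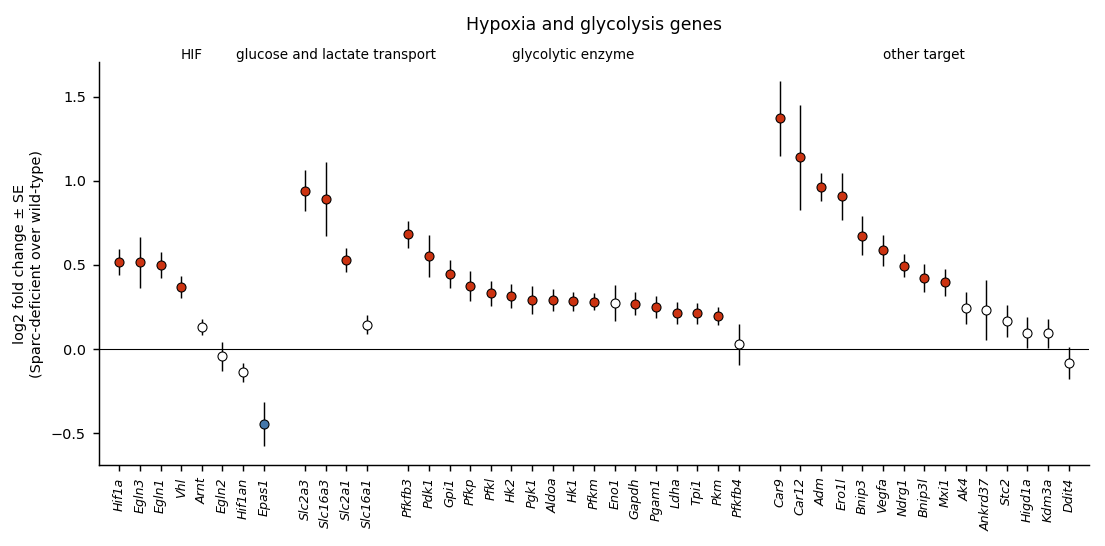
Log2 fold change ± SE (Sparc-deficient over wild-type co-culture) of the 44 tested hypoxia and glycolysis genes, ordered by role and size, with called genes filled red (higher) or blue (lower) and others white. Of the 17 glycolytic genes 15 are filled, most between 0.2 and 0.5, and Epas1 is the 1 called member below 0.

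Targets shared by TGF-beta and by the stretch-sensitive co-activator YAP, with their pathway genes, held 13 higher and 2 lower members of 35 tested (42.9% called), with a median of 0.16. Ccn1 (CYR61) and Ccn2 (CTGF), matricellular proteins and standard YAP targets, were at 533, 523 and 531 CPM against 969, 1023 and 931 (log2 0.88 ± 0.07, adjusted p 3.6e-09) and 130.4, 124 and 135 against 204, 252 and 204 (log2 0.76 ± 0.08, adjusted p 3.47e-07). T23 cells alone lay between both co-cultures, at 655, 621 and 705 CPM for Ccn1 and 171, 156 and 189.6 for Ccn2. The angiomotin gene Amotl2 was at 461, 435 and 439.7 CPM against 651, 732 and 677 (log2 0.63 ± 0.06, adjusted p 4.03e-07) and the Hippo kinase gene Lats2 at 27.4, 27.0 and 30.9 against 35.4, 38.1 and 35.7 (log2 0.36 ± 0.07, adjusted p 0.00164), both feedback targets of YAP. The co-culture groups of all these genes were apart.

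Of the ligands, the activin chain gene Inhbb was at 156, 150.3 and 148 CPM against 248, 270.1 and 240.2 (log2 0.74 ± 0.06, adjusted p 3.6e-09), while Tgfb3 fell (log2 -0.22 ± 0.06, adjusted p 0.0255), a call lost in 4 alternatives (without wild-type replicates 1 or 3, without Sparc-deficient replicates 1 or 3; adjusted p 0.0593 to 0.149). The co-receptor gene Tgfbr3 (0.42 ± 0.06), the latency protein gene Ltbp1 (0.24 ± 0.05) and the inhibitory Smad7 (0.39 ± 0.09) were higher. The other lower member was the smooth muscle actin gene Acta2, at 468, 537 and 458 CPM against 437, 365 and 408 (log2 -0.27 ± 0.09, adjusted p 0.0392), lost in 4 alternatives (without wild-type replicates 1 or 2, without Sparc-deficient replicates 2 or 3; adjusted p 0.0627 to 0.24).

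Matricellular proteins, the class to which SPARC belongs, were called in 10 of 16 tested genes, 7 higher and 3 lower. They did not move as one. Osteopontin (Spp1) was at 682, 698 and 638 CPM against 1043, 897 and 966 (log2 0.53 ± 0.06, adjusted p 4.06e-06) and tenascin C (Tnc) at 492, 498 and 516 against 555, 649 and 621 (log2 0.28 ± 0.06, adjusted p 0.00335). Thrombospondin 1 (Thbs1) rose slightly (log2 0.26 ± 0.06, adjusted p 0.00624), whereas thrombospondin 2 (Thbs2) fell, from 421, 391 and 371 to 244, 259 and 289 CPM (log2 -0.58 ± 0.11, adjusted p 0.00088). Within the CCN genes, Ccn1, Ccn2 and Ccn5 (0.89 ± 0.20) rose, and Ccn3, which is known to oppose CCN2, fell from 16.3, 17.0 and 16.2 to 8.57, 7.24 and 9.64 CPM (log2 -0.96 ± 0.13, adjusted p 2.01e-05). Ccn4 fell by less (-0.23 ± 0.06), and its call was lost in 1 alternative (without Sparc-deficient replicate 2, adjusted p 0.0714). The TGF-beta-induced gene Tgfbi was higher (0.41 ± 0.08).

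Collagen chains were called in both directions. Of 29 tested chains, 3 were higher and 3 lower (20.7% called), with a median of 0.09. Col3a1, a fibrillar chain, was at 5033, 5066 and 4761 CPM against 5714, 5720.5 and 5726 (log2 0.21 ± 0.05, adjusted p 0.00387), and Col12a1, which decorates fibrils, at 280.1, 272 and 261 against 297, 325 and 349 (log2 0.26 ± 0.06, adjusted p 0.00469). Col8a2, a short-chain network collagen, fell from 7.45, 6.56 and 7.23 to 3.65, 3.64 and 2.76 CPM (log2 -1.08 ± 0.15, adjusted p 3.09e-05), with 11.5, 9.20 and 9.03 in T23 cells alone. The other 2 lower chains, Col10a1 (log2 -0.94 ± 0.27, adjusted p 0.0263) and Col27a1 (log2 -0.24 ± 0.08, adjusted p 0.044), were lost when replicate 2 of either group or wild-type replicate 1 was left out, among others, which left 1.

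In the processing list, 11 of 26 tested genes were higher and 0 lower (42.3% called), with a median of 0.12. Prolyl hydroxylation stabilises the triple helix, and P4ha2 was at 198, 206 and 223 CPM against 324, 353 and 313 (log2 0.66 ± 0.08, adjusted p 1.07e-05). Lysyl hydroxylation prepares crosslinks, and Plod1 (0.47 ± 0.06), Plod2 (0.39 ± 0.09) and Plod3 (0.23 ± 0.06, lost in 3 alternatives (without wild-type replicates 1 or 3, without Sparc-deficient replicate 1; adjusted p 0.0504 to 0.061)) were higher, Plod1 at 141, 143 and 150.5 CPM against 193, 214 and 194. Of the crosslinking enzymes 4 of 6 rose. Lox was at 1192, 1068 and 1269 CPM against 1618, 1943 and 1774 (log2 0.60 ± 0.07, adjusted p 7.2e-06), Loxl3 at 135, 128 and 121 against 193, 184 and 191 (log2 0.57 ± 0.05, adjusted p 1.2e-08), and Loxl4 (0.23 ± 0.05) and transglutaminase 2 (Tgm2, 0.37 ± 0.05) rose by less. Several hydroxylase genes are also hypoxia targets.

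Elastic fibre and microfibril genes were called in 8 of 16, 6 higher and 2 lower. The microfibril proteins Mfap5 and Mfap4 moved in opposite directions, Mfap5 from 59.6, 56.7 and 70.1 to 116, 119 and 103 CPM (log2 0.86 ± 0.08, adjusted p 3.9e-08) and Mfap4 from 19.7, 19.1 and 17.5 to 10.4, 11.2 and 11.9 (log2 -0.75 ± 0.09, adjusted p 5.64e-06). Fibrillin 1 (Fbn1, 0.29 ± 0.06), fibrillin 2 (Fbn2, 0.40 ± 0.08) and fibulin 2 (Fbln2, 0.41 ± 0.06) rose. The calcification inhibitor gene Mgp was at 113, 105 and 105 CPM against 75.6, 91.1 and 62.5 (log2 -0.49 ± 0.10, adjusted p 0.0019), with 169, 153 and 173 in T23 cells alone, so that its level was highest in the cells grown alone.

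Of 14 basement membrane and adhesive glycoproteins, 7 were higher and 0 lower (4 without wild-type replicate 2 or 3 or Sparc-deficient replicate 2, and 3 without Sparc-deficient replicate 3). Nidogen 2 (Nid2) was at 108, 99.96 and 91.3 CPM against 136, 136 and 135 (log2 0.44 ± 0.06, adjusted p 4.41e-05), the laminin chain Lama4 at 201, 190.2 and 197 against 232, 259.9 and 253 (log2 0.34 ± 0.05, adjusted p 8.25e-05) and nephronectin (Npnt), an integrin ligand, at 15.6, 18.3 and 15.4 against 24.7, 26.1 and 28.1 (log2 0.67 ± 0.10, adjusted p 5.01e-05). Among small leucine-rich proteoglycans, Podn (0.64 ± 0.13) and Podnl1 (0.43 ± 0.07) rose and asporin (Aspn, -0.49 ± 0.12) fell, of 11 tested.

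Matrix proteases and inhibitors had 10 higher and 5 lower members of 34, the lower ones resting on single libraries (1 or 2 when a Sparc-deficient library or wild-type replicates 1 or 2 were left out). The proteoglycan-cleaving genes Adamts1 (0.42 ± 0.06), Adamts4 (0.37 ± 0.07), Adamts5 (0.53 ± 0.05) and Adamts9 (0.63 ± 0.07) rose, Adamts5 from 189, 181 and 184 to 255, 257 and 287 CPM (adjusted p 4.03e-07). Of 11 matrix metalloproteinase genes Mmp19 was the 1 higher (0.36 ± 0.06). The plasminogen activator gene Plat (0.23 ± 0.05) rose, and the protease inhibitor gene Serpine2 fell (-0.26 ± 0.06).

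Of 28 integrins and other matrix receptors, 6 were higher and 1 lower. The laminin receptor chain Itga6 was at 138, 144 and 146 CPM against 189.9, 213 and 203 (log2 0.50 ± 0.06, adjusted p 7.98e-06), and the collagen receptor chain Itga11 at 115, 108 and 111 against 149.9, 152 and 158 (log2 0.47 ± 0.05, adjusted p 9.37e-07). The syndecans Sdc3 (0.66 ± 0.12) and Sdc4 (0.41 ± 0.05) rose, and Itga8, the receptor chain for nephronectin, fell from 12.9, 12.4 and 11.99 to 8.71, 8.47 and 8.94 CPM (log2 -0.51 ± 0.09, adjusted p 0.000594). Itga8 and Npnt thus changed in opposite directions.

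**Figure D4:**
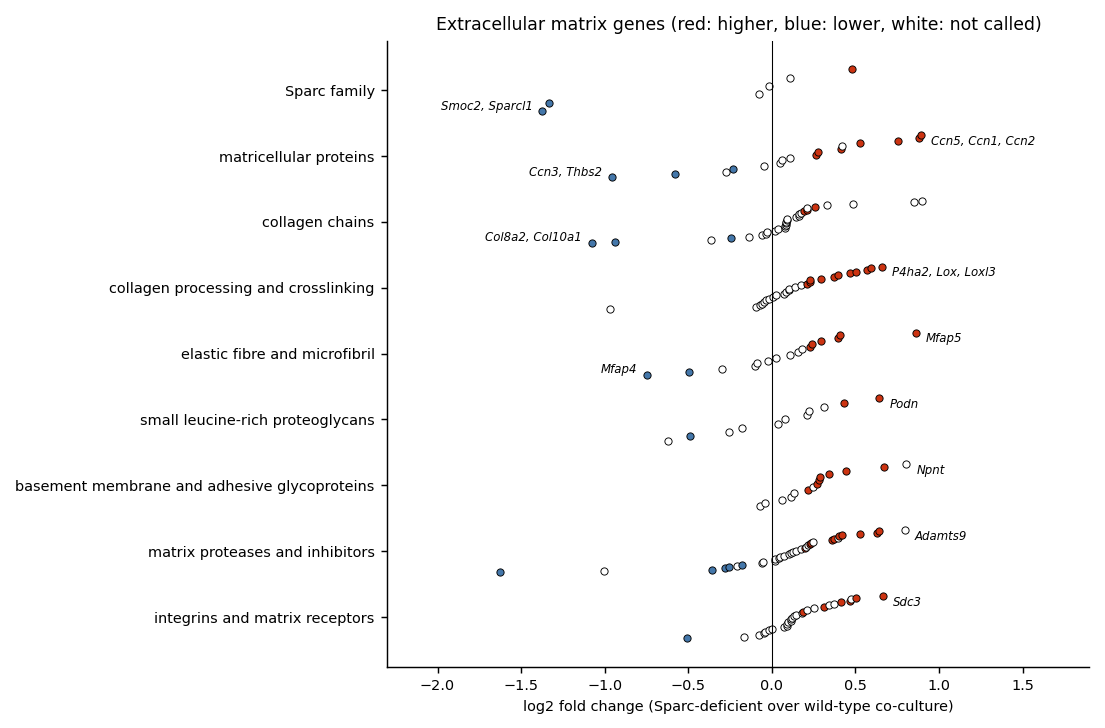
Log2 fold change (Sparc-deficient over wild-type co-culture) of each tested gene in 9 extracellular matrix lists, with 1 point per gene, red for higher, blue for lower and white for not called, and most of the called genes beyond 0.55 named. Collagen chains are mostly white, and the processing and crosslinking genes have 11 red points and no blue one.

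Wnt signalling genes were called in both directions. Of 39 tested genes 11 were higher and 3 lower (35.9% called), and of 4 tested target genes none was called, among them Lef1 (log2 0.25 ± 0.12, adjusted p 0.192). R-spondins raise the number of Wnt receptors through LGR proteins. The R-spondin gene Rspo2 was at 17.4, 17.3 and 15.2 CPM against 7.34, 6.45 and 10.1 (log2 -1.06 ± 0.12, adjusted p 3.1e-06), whereas the R-spondin receptor gene Lgr5 rose from 5.00, 5.26 and 5.06 to 7.57, 11.5 and 8.68 (log2 0.85 ± 0.16, adjusted p 0.000782). Of the ligands, Wnt10a was at 3.85, 3.30 and 4.05 CPM against 8.21, 6.85 and 6.31 (log2 0.94 ± 0.15, adjusted p 0.000203) and Wnt2b at 3.49, 3.06 and 1.97 against 1.14, 0.887 and 1.14 (log2 -1.42 ± 0.28, adjusted p 0.00128), in opposite directions. The abundant non-canonical ligand Wnt5a rose slightly (log2 0.19 ± 0.05, adjusted p 0.0144), a call lost in 4 alternatives (without wild-type replicate 2, without Sparc-deficient replicates 2 or 3, no filter on low counts; adjusted p 0.0504 to 0.0785). The receptors Fzd1 (0.34 ± 0.07) and Fzd7 (0.36 ± 0.06) and the secreted inhibitors Sfrp1 (0.58 ± 0.11), Dkk2 (0.30 ± 0.06) and Dkk3 (0.33 ± 0.05) were also higher.

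BMP genes were called in both directions, 3 higher and 5 lower of 24 tested (3 lower when Sparc-deficient replicates 2 or 3 or wild-type replicates 1 or 2 were left out). Grem1, the gene of the BMP antagonist gremlin, was at 668, 668 and 644 CPM against 501, 531 and 529 (log2 -0.34 ± 0.05, adjusted p 7.36e-05), and the BMP-binding modulator gene Bmper at 15.0, 16.4 and 15.8 against 26.9, 25.6 and 25.3 (log2 0.72 ± 0.08, adjusted p 2.6e-06). The ligand genes Bmp2, at 6.09, 6.32 and 5.36 CPM against 3.74, 4.29 and 2.54 (log2 -0.76 ± 0.16, adjusted p 0.0031), and Gdf6, at 1.82, 1.65 and 1.92 against 0.866, 0.640 and 0.701 (log2 -1.27 ± 0.26, adjusted p 0.00217), fell from low levels. In the Notch list 2 of 12 genes were higher and 1 lower, with the receptor gene Notch3 at 96.6, 94.5 and 104 CPM against 146, 149.8 and 156 (log2 0.61 ± 0.06, adjusted p 1.45e-07).

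Class I antigen presentation genes and interferon-stimulated genes were each called in both directions. Class I molecules show peptides of the cell to CD8 T cells. Of 20 tested class I genes 9 were higher and 1 lower (50% called), with a median of 0.25, and 14 were higher with only the 6 co-culture libraries or only the 9 libraries without enzalutamide in the fit. The heavy chains H2-K1 and H2-D1 were at 475, 474 and 508 CPM against 656, 642 and 624 (log2 0.40 ± 0.06, adjusted p 7.36e-05) and 459, 473 and 463 against 627, 592 and 599.7 (log2 0.38 ± 0.06, adjusted p 6.07e-05). H2-Q7 (1.35 ± 0.13) and H2-Q6 (1.40 ± 0.20), near-identical genes between which reads may have been split, stood at 3.96, 4.63 and 4.91 CPM against 10.6, 11.03 and 12.8 and 1.72, 1.77 and 2.17 against 4.42, 4.09 and 6.35. The peptide transporter gene Tap1 was at 50.6, 47.8 and 49.8 CPM against 70.3, 70.7 and 66.5 (log2 0.49 ± 0.08, adjusted p 0.000166) and the immunoproteasome gene Psmb8 at 74.5, 76.9 and 80.9 against 102, 93.3 and 101 (log2 0.35 ± 0.07, adjusted p 0.00115).

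Of 36 interferon-stimulated genes, 7 were higher and 6 lower, with a median of 0.03. The antiviral sensors Oas3, at 9.74, 9.31 and 10.8 CPM against 17.3, 18.3 and 20.8 (log2 0.92 ± 0.13, adjusted p 3.61e-05), and Zbp1, at 14.7, 14.7 and 14.5 against 28.8, 26.2 and 26.9 (log2 0.90 ± 0.09, adjusted p 6.89e-07), rose. Ifit1, at 125, 109 and 103 CPM against 80.5, 76.0 and 82.2 (log2 -0.50 ± 0.08, adjusted p 0.000207), and Mx1, at 5.83, 5.22 and 3.39 against 3.01, 2.07 and 1.71 (log2 -1.09 ± 0.22, adjusted p 0.00185), fell. These counts rested on single libraries: 4 were higher without any 1 of wild-type replicate 2 and the 3 Sparc-deficient replicates, 2 lower without wild-type replicate 1 and 3 lower without Sparc-deficient replicate 2 or 3.

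Of 10 tested complement genes 4 were higher and 1 lower. C3, the central component, had the smallest p of all its list, at 91.0, 88.3 and 79.6 CPM in the wild-type co-culture, 175, 176 and 194 in the Sparc-deficient one and 89.0, 84.1 and 91.0 in T23 cells alone (log2 1.07 ± 0.06, adjusted p 3.31e-11). C4b was at 14.3, 15.0 and 13.7 CPM against 26.8, 24.5 and 24.8 (log2 0.82 ± 0.10, adjusted p 7.96e-06), a count uncertain because of its close copy. Masp1, a protease of the lectin pathway, was at 86.3, 80.6 and 79.8 CPM against 134, 148 and 142 (log2 0.78 ± 0.06, adjusted p 1.59e-08). The receptor gene C3ar1, for the fragment that C3 releases, fell from 6.04, 5.42 and 6.17 to 4.10, 3.45 and 3.33 CPM (log2 -0.69 ± 0.13, adjusted p 0.000997).

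Some proliferation genes were lower, most did not pass the test, and the counts rested on single libraries. In the DNA replication list 7 of 28 genes were lower and 0 higher, with a median of -0.15 and 26 negative values. In the mitosis list 6 of 29 were lower and 0 higher, with a median of -0.10 and 26 negative values. The helicase genes Mcm4, at 95.9, 98.2 and 96.1 CPM against 79.2, 81.4 and 80.9 (log2 -0.27 ± 0.05, adjusted p 0.00154), and Mcm5, at 187, 185 and 170.1 against 154, 142 and 137 (log2 -0.32 ± 0.07, adjusted p 0.00328), and the spindle motor gene Kif11, at 161, 169 and 169.5 against 137, 133 and 140.3 (log2 -0.29 ± 0.05, adjusted p 0.000843), kept their calls in all 16 alternatives. Other members did not. Leaving out wild-type replicates 1 and 2 in turn gave 3 and 2 lower replication genes, and leaving out the Sparc-deficient ones gave 4, 2 and 3. Leaving out replicates 2 and 3 in turn gave 3 and 3 lower mitosis genes for the wild type, and 2 and 1 for the Sparc-deficient group. With only the 6 co-culture libraries, only the 9 libraries without enzalutamide, or all but the library rich in ribosomal RNA, 12, 15 and 12 replication genes were lower.

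Several steroid-responsive genes rose. The glucocorticoid receptor gene Nr3c1 was not called (log2 -0.04 ± 0.06, adjusted p 0.733). Of 10 tested steroid-responsive genes 5 were higher and 0 lower. Among them the kinase gene Sgk1 was at 268, 259 and 273 CPM against 391, 409 and 401 (log2 0.59 ± 0.05, adjusted p 2.78e-08) and the clock gene Per1 at 34.0, 34.3 and 31.8 against 43.9, 45.3 and 42.9 (log2 0.40 ± 0.08, adjusted p 0.000956). These genes, with Dusp1 and Ndrg1, also respond to glucocorticoids, stress or hypoxia. Fkbp5 (log2 0.13 ± 0.07, adjusted p 0.244) and Tsc22d3 (log2 -0.13 ± 0.06, adjusted p 0.201), classical targets of steroid receptors, were not called.

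In steroid and retinoid metabolism, 7 of 18 tested genes were higher and 2 lower. Akr1c14, a hydroxysteroid dehydrogenase that acts on dihydrotestosterone, was at 25.2, 25.4 and 28.5 CPM against 10.9, 11.6 and 13.0 (log2 -1.15 ± 0.10, adjusted p 2.88e-08). Hsd11b1, which makes active glucocorticoid from its inert form, was at 17.6, 16.4 and 17.3 against 29.7, 27.5 and 25.5 (log2 0.69 ± 0.11, adjusted p 0.000132). The retinoid enzymes Aldh1a1, at 10.99, 9.62 and 12.2 CPM against 17.0, 16.6 and 17.4 (log2 0.64 ± 0.09, adjusted p 3.87e-05), Dhrs3 (0.59 ± 0.10) and Rdh10 (0.29 ± 0.06) were higher, as was Cyp1b1 (0.63 ± 0.07), which oxidises both steroids and retinoids.

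Neuroendocrine markers, which the title of the series brings up, were mostly below detection. Of 37 listed genes 15 were tested, and 1 was higher and 1 lower (13.3% called, near the 11.5% of all genes). The granule gene Chga and the lineage factor gene Insm1 had 0 counts in all 6 libraries, and the synaptic vesicle gene Syp had 0 to 4, 5 in all in each group. Ncam1, a neural adhesion gene, was at 118, 117 and 131 CPM against 141, 146 and 143 (log2 0.23 ± 0.07, adjusted p 0.0363). The synaptic gene Cplx2 was at 7.34, 7.15 and 9.25 against 5.47, 6.16 and 6.05 (log2 -0.42 ± 0.11, adjusted p 0.013). The first call was lost with the replicate block and without any 1 library but wild-type replicate 3 (0.0534 to 0.146), and the second without wild-type replicate 3 or Sparc-deficient replicate 1 or by DESeq2 on the 6 libraries (0.0639 to 0.0965). Neuron-specific enolase (Eno2) did not pass, at 43.7, 43.3 and 45.8 CPM against 45.5, 47.1 and 47.1 (log2 0.07 ± 0.08, adjusted p 0.646). Ezh2 (log2 -0.13 ± 0.07, adjusted p 0.239) and Rest (log2 0.07 ± 0.06, adjusted p 0.531), regulators tied to this lineage, were not called.

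Further lists held fewer calls. Of 24 sterol biosynthesis genes 7 were higher and 0 lower, led by Cyp51 (0.22 ± 0.05), with 2 to 4 higher when a Sparc-deficient library or wild-type replicates 1 or 3 were left out, and 2 without a filter on low counts. Of 26 vascular growth factor genes 6 were higher and 4 lower. Angpt4 was at 9.69, 9.39 and 10.7 CPM against 17.0, 21.5 and 16.8 (log2 0.89 ± 0.12, adjusted p 2.16e-05) and Angptl2 at 399.9, 404 and 408 against 557, 611 and 549 (log2 0.50 ± 0.06, adjusted p 1.31e-06), while the co-receptor gene Nrp2 (-0.36 ± 0.06) and the VEGF receptor gene Flt1 (-0.30 ± 0.08) fell, the latter lost in 3 alternatives (without wild-type replicates 2 or 3, without Sparc-deficient replicate 1; adjusted p 0.0685 to 0.113). The hepatocyte growth factor gene Hgf (0.38 ± 0.07) and the lymphatic growth factor gene Vegfd (0.33 ± 0.07) rose.

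Of 21 tested genes in the list of p53 and its targets, 6 were higher and 1 lower. The death genes Fas (0.47 ± 0.09) and Pmaip1 (0.57 ± 0.11) and the stress gene Gadd45a (0.43 ± 0.10) rose. The 1 lower member was Trp53 itself, the gene of p53, so that no target was called lower. It fell from 190.4, 204 and 182 to 165, 155 and 158 CPM (log2 -0.27 ± 0.06, adjusted p 0.0029). Of 26 NRF2 antioxidant targets 3 were higher and 3 lower, with extracellular superoxide dismutase (Sod3) at 7.24, 10.1 and 6.27 CPM against 17.1, 13.1 and 15.1 (log2 0.92 ± 0.15, adjusted p 0.000221) and the glutathione synthesis gene Gclc at 47.9, 46.8 and 54.8 against 37.9, 39.9 and 36.9 (log2 -0.38 ± 0.07, adjusted p 0.000708). Of 26 genes of the unfolded protein and integrated stress response 2 were higher and 1 lower (11.5% called, the share of all genes).

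In the IGF axis 3 of 14 genes were higher and 1 lower, with the binding protein genes Igfbp3 (0.43 ± 0.07) and Igfbp4 (0.36 ± 0.06) higher and the imprinted non-coding RNA H19 (-0.65 ± 0.15) lower. Among 32 axon guidance genes 5 were higher, 2 without Sparc-deficient replicate 2, and 2 lower, among them the semaphorin receptor gene Plxna2 (-0.47 ± 0.07). Of 10 tested genes in the list of D cyclins, CDK inhibitors and related cell cycle genes, 2 were higher and 2 lower. A CDK inhibitor gene and a gene of another kind were called in each direction, and no D cyclin gene was called. Of 11 EMT factors 1 was higher and 1 lower, the latter Twist2, at 19.1, 17.2 and 15.6 CPM against 12.4, 11.8 and 11.4 (log2 -0.54 ± 0.09, adjusted p 0.00028), while Snai2 (log2 0.06 ± 0.08, adjusted p 0.725), Cdh2 (log2 -0.11 ± 0.07, adjusted p 0.347) and Vim (log2 0.07 ± 0.06, adjusted p 0.551) were not called. In 39 of the 40 lists the share called was above the 11.5% of all genes. The lists were chosen with earlier results of these libraries known, so that this count only describes them.

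Markers of other cell types moved with some of these results, and their part in them was not tested. The sum of 14 macrophage and myeloid markers was 17.4 to 18.2 CPM with Sparc-deficient and 13.8 to 14.9 CPM with wild-type fibroblasts. It was carried by Cd14, at 10.2, 9.31 and 9.25 CPM against 11.4, 9.85 and 12.8 (log2 0.25 ± 0.11, adjusted p 0.149), and Cd68, at 3.23, 3.46 and 4.65 against 4.51, 7.49 and 4.56 (log2 0.54 ± 0.19, adjusted p 0.0638), neither of which was called. The sum of 9 erythroid and platelet markers was 20.5 to 24.8 CPM against 9.60 to 12.3, of which Ppbp and Itga2b (log2 0.25 ± 0.12, adjusted p 0.178) made up nearly all, while the platelet gene Gp9 and the globin gene Hbb-bs were at 0 counts. The sum of 9 endothelial markers went from 5.48 to 6.59 CPM with wild-type to 4.14 to 4.74 CPM with Sparc-deficient fibroblasts. Of these the receptor gene Tek was called (log2 -1.39 ± 0.40, adjusted p 0.0244), a call lost in 4 alternatives (without wild-type replicates 1 or 2, without Sparc-deficient replicates 2 or 3; adjusted p 0.0537 to 0.141).

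The sum of 15 luminal epithelial markers was 45.1 to 46.1 CPM with Sparc-deficient and 27.8 to 29.9 CPM with wild-type fibroblasts, with 23.1 to 26.0 in T23 cells alone. Krt7 was at 12.8, 11.8 and 13.6 CPM against 24.99, 24.8 and 22.4 (log2 0.92 ± 0.09, adjusted p 1.86e-07). Krt8, Epcam and Cdh1 had fewer counts in all with Sparc-deficient fibroblasts (9, 2 and 7) than with wild-type fibroblasts (26, 11 and 10). The sum of 10 basal markers was 13.4 to 14.1 CPM against 8.40 to 9.37, with Trp63, the basal factor p63, at 2.55, 2.99 and 2.07 against 5.56, 6.16 and 7.23 (log2 1.30 ± 0.18, adjusted p 3.03e-05). The sum of 9 smooth muscle markers was 384 to 465 CPM against 489 to 569, with 366 to 415 in T23 cells alone. Fibroblast markers summed to 34907 to 36129 CPM against 32561 to 33637, and of 14 tested members 3 were higher and 1 lower. The surface markers Thy1, at 92.4, 98.7 and 91.2 CPM against 134, 125 and 128 (log2 0.46 ± 0.07, adjusted p 4.81e-05), and Pdpn (0.28 ± 0.06) rose, and the fibroblast activation protein gene Fap fell, from 4.17, 3.54 and 5.01 to 1.92, 2.12 and 2.72 CPM (log2 -0.90 ± 0.19, adjusted p 0.00218).

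Genes close to Sparc were counted separately. Within 5 Mb of Sparc on chromosome 11, 13 of 110 tested genes were called (11.8%), 5 higher and 8 lower, against 11.3% of all tested genes of the chromosome. This count was 5 and 5 when wild-type replicates 1 and 2 were left out, and 6 and 4 when Sparc-deficient replicates 2 and 3 were. P4ha2 had the largest rise among those above 5 CPM, followed by the actin-binding gene Pdlim4 (0.42 ± 0.09) and the ganglioside activator gene Gm2a (0.35 ± 0.07), and the tumour suppressor gene Flcn fell (-0.37 ± 0.07).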

How the data were processed

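Poly(A) RNA was sequenced (TruSeq Stranded mRNA, NextSeq 550), per the labels' protocols. The deposited files hold raw counts per Ensembl gene, 1 file per library. Per the submitters' processing notes, the authors' tools included the aligner STAR 2.6.1d, the counter featureCounts 2.0, the trimmer cutadapt 2.9 and DESeq2, with build GRCm38. The strand setting and the handling of reads with several matches are not given in the sources used here, so counts of near-identical, overlapping and antisense genes are uncertain. Symbols and positions came from GENCODE M21 (55227 of 55487 genes matched).

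Genes were kept by filterByExpr (minimum count 10), scaled by TMM and fitted with edgeR 4.0.16 (quasi-likelihood F test, two-sided; limma 3.58.1, R 4.3.3) to all 18 libraries with 1 mean per group, which left 12 residual degrees of freedom. The library rich in ribosomal RNA is an enzalutamide library. It enters the filter, the scaling and the estimate of spread, but not the mean of either co-culture group. Without it, 13886 genes were tested and 2085 called. Each SE was computed as the absolute log2 fold change divided by the square root of the F statistic. On simulated data with known changes, a 1.5-fold change was called in 78.6% and a 2-fold change in 82.8% of the genes given it, as were 4 of 13199 unchanged genes. These counts were drawn with the spread of the fit itself, with 98 genes changed 1.5-fold and 99 changed 2-fold. They cannot check the model, and smaller changes were not simulated. DESeq2 1.42.0 was an alternative. Levels compare libraries within a gene, since CPM is not divided by gene length.

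Same-numbered co-culture libraries did not deviate together (correlations 0.00521, -0.0215 and 0.0589), so the replicate numbers were not taken to pair libraries.

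The comparison, the gene lists and the members were chosen with earlier results of these data known. Named genes are the Sparc family, the 15 largest changes in each direction above 5 CPM without overlap, the 10 smallest p in each direction, the 6 members with the smallest p (only called ones) in each list with at least 20% or 5 members called, and neuroendocrine markers such as Syp, Chga, Ncam1, Eno2 and Insm1. Some genes that this rule selects are not reported here. The other 69 tested genes named, mostly further members of these lists, were chosen after their values were seen.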

Additional observations from a re-analysis of the deposited data

How the results depend on the processing

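The fit was repeated under 16 alternatives: other scalings, no filter on low counts, DESeq2 on all or 6 libraries, fewer libraries, totals without mitochondrial and ribosomal RNA genes, a replicate block, and leaving out each of the 6 co-culture libraries. Called genes numbered 2437, of which 1092 lower, with only the 9 libraries without enzalutamide, and between 1441 and 2085 in the other alternatives that kept all 6 libraries. Genes changed at least 2-fold numbered 69 by DESeq2 and 68 by DESeq2 on the 6 libraries. Without 1 library, 857 to 1352 genes were called, 559 to 813 higher and 298 to 539 lower, 76 to 102 changed at least 2-fold, and 4 to 13 were called near Sparc. With the replicate block, 1441 genes were called, 853 higher and 588 lower, with 96 at least 2-fold and 10 near Sparc. The block ended no call of a named gene beyond those given with it in the text. The share of calls that were higher, 58.4%, ran from 55.2% to 65.2%. Spock2, which was not called, turned to -0.10 without Sparc-deficient replicate 3 and ran up to 0.38 without 1 library. The causes were not tested. Of 233 tested genes named, 210 were called; 186 of these were called under every alternative, 24 lost the call under at least 1, each given in the text, and 0 changed sign. Depth limits the result for genes under about 1 CPM, such as Il6, Cxcl2 and Syp. All 16 alternatives were among those planned.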

Other observations

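The share of genes called is given here by kind of gene, with no test. Of 12215 tested protein-coding genes 1507 were called (12.3%), of 235 long intergenic non-coding RNAs 15 (6.38%, 5 higher and 10 lower), of 212 antisense genes 5 (2.36%) and of 398 processed pseudogenes 7 (1.76%). By chromosome, the share called ran from 6.90% of 493 genes on chromosome 13 to 13.8% on chromosomes 4 and 10.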
